A study of Mus musculus with 2 samples.

Results

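The genes described here are 42 mouse genes of cystic kidney disease and of the primary cilium, taken by name from a list of such genes. No signal in these data entered the choice rule, but earlier results of these data were known when the genes were chosen. They were set beside the 21938 protein-coding genes of the mouse annotation. The list holds 3 polycystic kidney genes, 12 nephronophthisis genes, 9 genes of transport along the cilium, 8 Bardet-Biedl (Bbs) genes and 10 genes of the transition zone at the base of the cilium. DNase-seq, which maps DNA that a nuclease can reach in chromatin, was run on kidney tissue of newborn mice (postnatal age 0 days) of the strain B6NCrl. No treatment or engineered allele is named in the labels. There was 1 group with 2 replicates and no comparison group, so every value below is a description and no test was possible. Both replicates carry the same donor record but separate tissue records, and whether they come from separate animals is not stated. Sex was not collected, and the spread between the replicates may be technical in part.

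The primary cilium is a single antenna-like extension of most kidney epithelial cells. It is built by motors that carry protein trains along its shaft, it is gated by the transition zone, and the Bbs proteins sort its membrane proteins. Polycystins and fibrocystin sit in the ciliary membrane, and loss of either, or of many genes of ciliary assembly and gating, is known to give cysts in the kidney tubules.

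Each replicate was given as a list of peaks with a signal for each peak, as deposited by the authors. The lists held 266133 and 257133 peaks, with a median signal of 17.1 and 16.9 in replicates 1 and 2, and 197749 sites overlapped between them. Read depth is unknown from these lists, so no interval for counting error could be given. All 10 kidney cell markers checked, from Six2 of nephron progenitors to Lrp2 of proximal tubule, had a promoter peak in both replicates, against 2 of 4 leukocyte markers and 0 of 3 hepatocyte markers. Such peaks were also found at 71.8% of all protein-coding genes. They were found as well at 14 of 14 genes of multiciliated cells, which bear many motile cilia. The presence of peaks therefore did not separate the kidney markers from that list. In this tissue, fewer cells of a type and less open chromatin per cell cannot be told apart.

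The promoter signal of a gene is the signal of the strongest peak within 1 kb of any of its annotated start sites, and pairs of values below are replicate 1 and replicate 2 in that order. A promoter peak was present in both replicates for 42 of 42 members, beside 71.8% of all protein-coding genes. The members' median promoter signal was 143 and 159, beside 94.0 and 103 for all protein-coding genes with a peak. Members had a median of 6 annotated start sites, beside 3 for all protein-coding genes, so more start sites were typically searched per member. The part of this in the members' peak counts, signals and percentiles was not tested. The members ranged between 22.0 and 288 in replicate 1 and between 31.7 and 330.2 in replicate 2. In both replicates 31 members were above the median of all protein-coding promoters, which 48.3% of those promoters were. In both replicates 19 members were above the upper quartile, beside 23.1% of all. Below the median in both were 8 members, beside 7368 of the 15743 protein-coding genes with a peak in both.

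Most members have promoters rich in CpG dinucleotides, and CpG-rich promoters had peaks almost throughout the genome. When protein-coding promoters were split into 5 equal groups by observed over expected CpG, 0, 3, 16, 16 and 7 members fell in the groups from poorest to richest. A peak in both replicates was present at 19.1%, 53.0%, 89.7%, 97.9% and 99.0% of all promoters in those groups. In the middle group the 16 members had a median signal of 155 and 174, against 78.3 and 82.2 for all promoters of that group. In the next richer group the medians were 122 and 143 for members, against 118 and 130.2 for all. In the richest group they were 168 and 183 for the 7 members, against 125 and 141 for all. The 3 members in the second poorest group were Pkhd1, Nphp4 and Cc2d2a, with a median of 137 and 136, against 40.8 and 41.5 for all. Pkhd1, at 22.0 and 31.7, was below the median of that group in both replicates. The Nphp4 peak, shared with Kcnab2, lay 929.5 and 909.5 bp downstream of the most 5′ start site. That of Cc2d2a lay 9929.5 bp downstream in both replicates. The CpG content near the most 5′ start site may therefore not describe these 2 peaks.

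**Figure D1:**
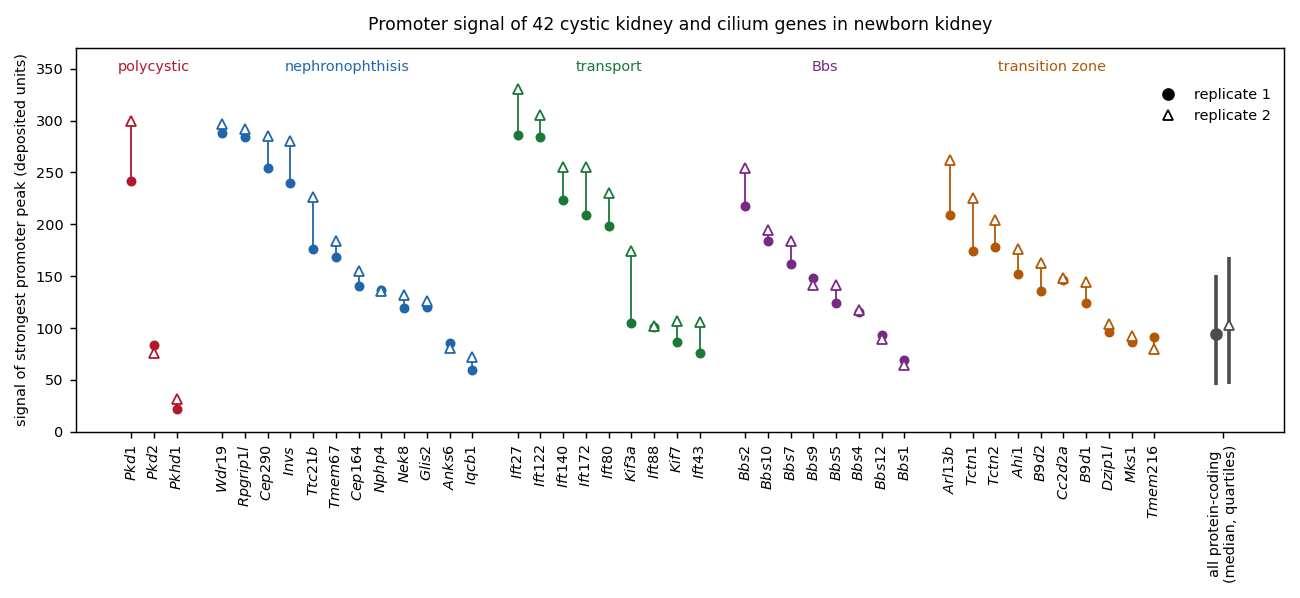
Signal of the strongest promoter peak (deposited units, linear axis) of each of the 42 genes, by class, with replicate 1 as a filled circle and replicate 2 as an open triangle; the grey bars at the right are the quartiles of all protein-coding genes with a peak, with medians of 94.0 and 103. Ift27, at 287 and 330.2, and Pkhd1, at 22.0 and 31.7, have the highest and the lowest mean, and the 4 larger classes overlap along the axis.

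The 3 polycystic kidney genes stood at very different levels. Pkd1 encodes polycystin-1, a large receptor-like membrane protein, and lies at chr17:24549834-24596508 on the plus strand of mm10. Its promoter peak at chr17:24549821-24549970 had a signal of 242 and 299.9, or 271 ± 41.2 (SD, n = 2), on average at percentile 96.6 of protein-coding promoters. Pkd2 encodes polycystin-2, the cation channel that pairs with polycystin-1, and lies at chr5:104459450-104505819 on the plus strand. Its peak at chr5:104459441-104459590 had 83.6 and 76.4, or 80.0 ± 5.13 (SD, n = 2), at percentile 41.6. Pkhd1 encodes fibrocystin, the protein of recessive polycystic kidney disease, and spans chr1:20057779-20618064 on the minus strand. Its peak, at chr1:20618061-20618210 in replicate 1, had 22.0 and 31.7, or 26.9 ± 6.81 (SD, n = 2), at percentile 14.3. Pkd1 was above Pkd2 and Pkd2 above Pkhd1 in both replicates, with no overlap of the replicate values. Of all 42 members, Pkhd1 was the lowest in both replicates.

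The promoter windows of these genes differ in base composition and in the motifs they hold. Each window below runs from 250 bases before to 50 bases after the most 5′ annotated start site, 5′ to 3′ along the gene, on GRCm38.p6, whose coordinates are those of mm10. Capitals mark GGGCGG, the box bound by SP factors, on either strand. In the Pkd2 and Pkhd1 windows none of the motifs reported below was found and no base is marked. The Pkd2 promoter peak runs past the end of its window, and the whole peak did hold the SP box.
Pkd1 (plus strand, chr17:24549584-24549883): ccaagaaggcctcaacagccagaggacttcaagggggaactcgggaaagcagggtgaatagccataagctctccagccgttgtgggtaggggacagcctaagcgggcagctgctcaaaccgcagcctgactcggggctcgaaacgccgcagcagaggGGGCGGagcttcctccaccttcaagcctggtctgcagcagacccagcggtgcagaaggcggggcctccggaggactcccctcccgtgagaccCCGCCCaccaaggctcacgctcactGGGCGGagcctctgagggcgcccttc
Pkd2 (plus strand, chr5:104459200-104459499): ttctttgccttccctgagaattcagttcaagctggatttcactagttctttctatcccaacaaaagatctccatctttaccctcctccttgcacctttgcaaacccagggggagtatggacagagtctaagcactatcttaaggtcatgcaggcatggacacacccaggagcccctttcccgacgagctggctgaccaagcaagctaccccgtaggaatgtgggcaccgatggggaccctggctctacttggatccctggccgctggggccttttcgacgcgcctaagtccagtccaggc
Pkhd1 (minus strand, chr1:20618015-20618314): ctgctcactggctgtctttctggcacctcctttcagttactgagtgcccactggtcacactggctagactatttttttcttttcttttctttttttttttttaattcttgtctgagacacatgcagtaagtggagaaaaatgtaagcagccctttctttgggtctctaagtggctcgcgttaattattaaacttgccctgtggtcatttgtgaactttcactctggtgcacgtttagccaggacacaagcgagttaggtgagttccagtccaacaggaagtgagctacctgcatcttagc
The windows held 65.7%, 54.3% and 43.7% G and C in Pkd1, Pkd2 and Pkhd1.

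Around the start sites of the polycystic genes the number of peaks also differed. Within 50 kb of the most 5′ start site there were 25 and 26 peaks for Pkd1, 18 and 19 for Pkd2, and 9 and 9 for Pkhd1, counting peaks at other genes' promoters. The strongest peak in the Pkd1 neighbourhood lay 21.8 kb upstream, with 299 and 311, above Pkd1's own promoter in both replicates. Near Pkd2 a peak about 48.9 kb downstream of the start had 78.7 and 102.2, below the Pkd2 promoter in replicate 1 and above it in replicate 2. Both of these peaks lay within 1 kb of another annotated start site, so neither was counted as distal. Shared distal sites, which overlap between replicates and lie over 1 kb from every annotated start site, numbered 10 at Pkd1, 6 at Pkd2 and 7 at Pkhd1. The strongest of them at Pkd1, chr17:24540501-24540650, was intergenic, 9.26 kb upstream, with 55.6 and 63.2. Inside Pkd1 an intronic site 9.05 kb downstream of the start had 45.2 and 58.0. At Pkd2 the strongest, chr5:104446321-104446490, was intergenic, 13.0 kb upstream and nearer to the start of Spp1, with 53.0 and 54.2. At Pkhd1 an intergenic site at chr1:20619461-20619630, 1.48 kb upstream, had 25.8 and 29.4, a further site 36.2 kb upstream had 26.1 and 24.7, and one 5.15 kb downstream, in an intron, had 24.8 and 23.2. These Pkhd1 sites had about the signal of the Pkhd1 promoter itself. Nearness alone does not tie any of these sites to the gene.

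**Figure D2:**
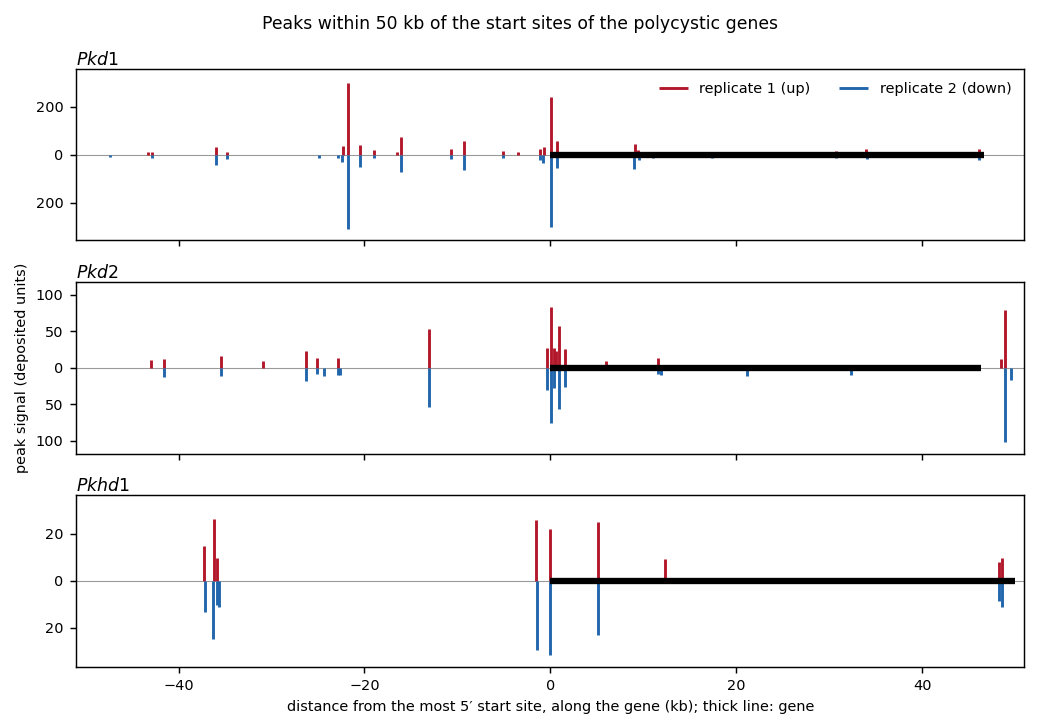
Peaks within 50 kb of the most 5′ start site of Pkd1, Pkd2 and Pkhd1: the horizontal axis is the distance along the gene in kb, the vertical axis the deposited peak signal (replicate 1 upwards, replicate 2 downwards, a different scale in each panel), and the thick line the gene. The promoter peak near 0 stands at 242 and 299.9 in Pkd1 and at 83.6 and 76.4 in Pkd2, and Pkhd1 has 9 peaks in each replicate, none above 31.7.

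The 12 nephronophthisis genes, whose loss gives a fibrotic and cystic kidney disease of children, had a median promoter signal of 154 and 169. Wdr19, a subunit of the transport complex A, was highest with 288 and 296. Rpgrip1l, a scaffold of the transition zone, had 284 and 292. Cep290, which links the ciliary membrane to its microtubules at the transition zone, had 255 and 285. Invs, whose product inversin defines a compartment just above the transition zone, had 239.8 and 281. These 4 were above the upper quartile of all promoters in both replicates. So were Ttc21b, another subunit of transport complex A, with 176 and 226, and Tmem67, the receptor-like protein meckelin, with 168 and 183. The Tmem67 peak lay nearer to the start of its neighbour Rbm12b2 than to any Tmem67 start.

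The other members of this class were lower. Cep164, a protein of the appendages that dock the basal body, had 140.2 and 155. Nphp4, a transition zone protein, had 137 and 136, in a peak nearer to the start of its neighbour Kcnab2. Nek8, a kinase of the inversin compartment, had 119 and 132. Its partner there, Anks6, which binds and activates Nek8, had 85.2 and 81.0, below Nek8 in both replicates. Glis2, a zinc finger transcription factor, had 119.98 and 126. Iqcb1, a ciliary calmodulin-binding protein, was lowest with 59.4 and 71.9. Anks6 and Iqcb1 were the only members of the class below the median of all promoters in both replicates.

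The 9 transport genes had a median of 199 and 230.5, the highest of the classes with all members counted but the lowest of the 4 larger ones, at 122 in the mean of both replicates, without promoters shared with another gene. There was also a gap within the class. 5 of them were at or above 199 in both replicates. Ift27, a small GTPase of transport complex B, had 287 and 330.2, the highest mean of all 42 members. In complex A, Ift122 had 284 and 305 and Ift140 had 223 and 255. Also in complex B, Ift172 had 209 and 256 and Ift80 had 199 and 230.5. The remaining transport genes were at or below 174 in both replicates. Kif3a, a subunit of the motor that drives trains to the tip, had 105 and 174, the largest difference between replicates of any member. Ift88, the complex B subunit whose hypomorphic mutation makes the cystic Oak Ridge mouse, had 101.4 and 101.5. Kif7, a kinesin of the ciliary tip and a regulator of Hedgehog signalling, had 86.1 and 106, and Ift43, of complex A, had 76.3 and 105. Members of both transport complexes were found on each side of the gap. The gap held only for these 9 genes. Ttc21b, of complex A but counted with nephronophthisis, lay within it at 176 and 226. Some of the other transport genes described below also had signals within it in both replicates.

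The 8 Bbs genes had a median of 136 and 142. Among the subunits of the BBSome, the coat that carries membrane proteins out of the cilium, Bbs2 was highest with 218 and 254. Bbs7 had 162 and 184, Bbs9 had 148 and 142 and Bbs5 had 124 and 141. Bbs4 had 115 and 117, and Bbs1 was lowest with 69.1 and 64.5. So subunits of 1 complex covered most of the range of the class. Bbs10 and Bbs12 are chaperonin-like proteins needed to assemble the BBSome. Bbs10 had 184 and 194 and Bbs12 had 93.0 and 89.4. Bbs1 and Bbs12 were below the median of all promoters in both replicates.

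The 10 transition zone and ciliary membrane genes had a median of 141 and 156. Arl13b, a small GTPase of the ciliary membrane, was highest with 209 and 262. Of the tectonics, Tctn1 had 175 and 225 and Tctn2 had 178 and 204. Ahi1, the transition zone protein jouberin, had 152 and 176. These 4 were above the upper quartile of all promoters in both replicates. The B9 domain proteins form 1 complex. B9d2 had 136 and 163, B9d1 had 124 and 145 and Mks1 had 86.3 and 91.9. The replicate values of B9d1 and B9d2 overlapped, and those of Mks1 lay below both. Cc2d2a, a coiled-coil protein of the transition zone, had 147 and 148. Dzip1l, a transition zone protein whose mutation also gives recessive polycystic kidney disease, had 96.1 and 104. Tmem216, a membrane protein of the zone, had 91.3 and 79.8. Mks1 and Tmem216 were below the median of all promoters in both replicates.

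The classes overlapped in promoter signal. In replicate 1 the Bbs genes ranged between 69.1 and 218, the transition zone genes between 86.3 and 209, the transport genes between 76.3 and 287 and the nephronophthisis genes between 59.4 and 288. Each of these ranges held the medians of all 4. With all members counted, the medians in both replicates ran from transport down through nephronophthisis and transition zone to Bbs. That order was not stable, since with a 500 bp promoter window, or with Ttc21b and Wdr19 counted as transport genes, nephronophthisis, at 142, was below transition zone, at 149 in the mean of both replicates. Without shared promoters transport was last. The 3 polycystic genes are too few to place.

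Promoters shared with a neighbouring gene were frequent in the nephronophthisis class. In 11 of 42 members the strongest promoter peak also lay within 1 kb of a start site of another protein-coding gene in both replicates, beside 17.6% of protein-coding genes with a peak. They were 7 of 12 nephronophthisis genes, 3 of 9 transport genes and 1 of 8 Bbs genes. In all 11 the neighbour was on the opposite strand. Distances were taken from the member's most 5′ start site to the nearest start of the neighbour. The shortest were 36 bp for Nek8 and Tlcd1, 99 bp for Ift122 and the DNA repair gene Mbd4, 108 bp for Bbs12 and Cetn4, and 124 bp for Iqcb1 and Eaf2. They were 168 bp for Ift80 and the condensin gene Smc4, 202 bp for Invs and Erp44, 208 bp for Cep290 and Tmtc3, 263 bp for Rpgrip1l and Fto, and 297 bp for Ift140 and Cramp1l. The widest were 579 bp for Tmem67 and Rbm12b2 and 727 bp for Nphp4 and Kcnab2. In these promoters the signal cannot be assigned to 1 of the genes. Without the shared promoters the transport median was 122 in the mean of both replicates, against 215 with them. It was then below transition zone, at 149, nephronophthisis, at 148, and Bbs, at 145, so that transport moved from first to last of these 4 classes.

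Most strongest peaks of the members sat close to an annotated start site. All 42 strongest promoter peaks overlapped between replicates and all were 150 bp wide in both lists. The centre was within 200 bp of an annotated start site of the same gene in 38 members in replicate 1 and 39 in replicate 2. No share over all protein-coding genes is at hand for these counts, so they describe the members only. Members also had a median of 6 annotated start sites, beside 3 for all protein-coding genes. The median centre lay 48.0 bp upstream of that start site in replicate 1 and 41.5 bp in replicate 2. A few members had their strongest peak elsewhere. In Cc2d2a it lay 9929.5 bp downstream of the most 5′ start site, at chr5:43672201-43672350, and 13.5 bp upstream of an internal annotated start. In Nphp4 it was 929.5 and 909.5 bp downstream, in Tmem67 664.5 bp, in Bbs2 432.5 bp and in Tmem216 422.5 bp, the last 59.5 bp upstream of an internal start. With the promoter window narrowed to 500 bp, Tmem67 fell to a mean of 101.7, against 176 with the window of 1 kb.

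**Figure D3:**
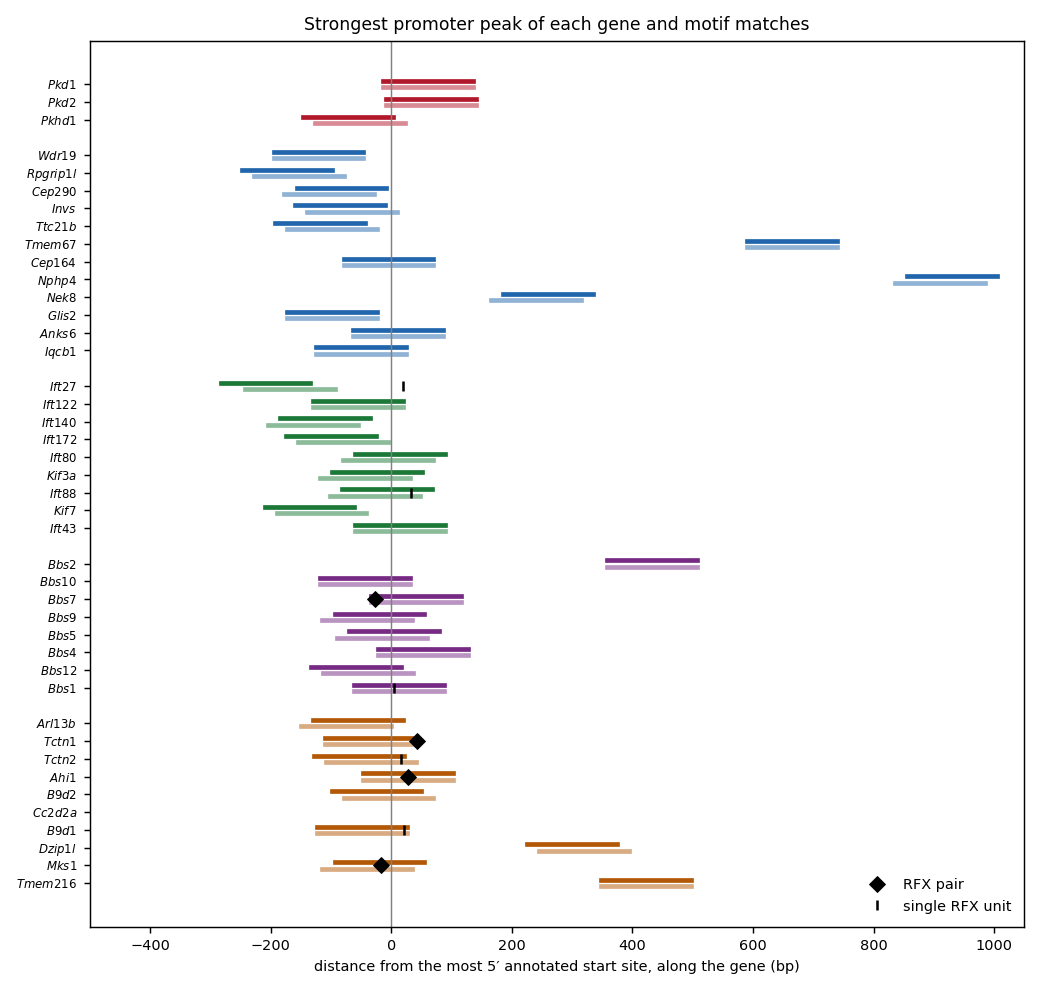
Position of the strongest promoter peak of each gene relative to its most 5′ annotated start site (bp along the gene; dark bar replicate 1, pale bar replicate 2), with RFX motif matches of the promoter window marked. Most bars lie over or just upstream of 0, Tmem67, Nphp4, Bbs2 and Tmem216 lie further downstream, and Cc2d2a lies off the axis at 9929.5 bp.

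RFX factors bind a pair of inverted units in many cilium gene promoters. The pair searched, GTTNCC, 0 to 3 bases and GGNAAC, was in the windows of 4 of 42 members, beside 0.725% of all 21938 protein-coding windows. The 4 are shown because their letters can be compared directly. Capitals mark the pair, and all run 5′ to 3′ along the gene on GRCm38.p6.
Tctn1 (minus strand, chr5:122264411-122264710): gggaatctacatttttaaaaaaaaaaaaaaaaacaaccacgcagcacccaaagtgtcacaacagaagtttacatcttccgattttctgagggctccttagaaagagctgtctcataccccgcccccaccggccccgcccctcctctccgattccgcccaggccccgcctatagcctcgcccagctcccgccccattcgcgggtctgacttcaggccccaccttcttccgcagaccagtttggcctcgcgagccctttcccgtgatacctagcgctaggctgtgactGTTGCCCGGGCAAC
Bbs7 (minus strand, chr3:36613428-36613727): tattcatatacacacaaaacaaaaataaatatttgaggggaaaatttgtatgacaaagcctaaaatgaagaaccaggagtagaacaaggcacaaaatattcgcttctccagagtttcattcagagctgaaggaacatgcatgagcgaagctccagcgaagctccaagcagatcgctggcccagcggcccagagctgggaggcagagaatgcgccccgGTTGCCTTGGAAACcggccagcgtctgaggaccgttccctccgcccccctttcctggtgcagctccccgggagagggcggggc
Ahi1 (plus strand, chr10:20952297-20952596): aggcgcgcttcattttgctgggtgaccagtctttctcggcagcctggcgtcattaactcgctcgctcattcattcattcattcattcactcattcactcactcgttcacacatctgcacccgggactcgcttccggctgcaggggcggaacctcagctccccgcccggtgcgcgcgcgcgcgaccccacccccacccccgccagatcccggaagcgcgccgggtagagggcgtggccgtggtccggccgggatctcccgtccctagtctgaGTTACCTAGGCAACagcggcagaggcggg
Mks1 (plus strand, chr11:87852965-87853264): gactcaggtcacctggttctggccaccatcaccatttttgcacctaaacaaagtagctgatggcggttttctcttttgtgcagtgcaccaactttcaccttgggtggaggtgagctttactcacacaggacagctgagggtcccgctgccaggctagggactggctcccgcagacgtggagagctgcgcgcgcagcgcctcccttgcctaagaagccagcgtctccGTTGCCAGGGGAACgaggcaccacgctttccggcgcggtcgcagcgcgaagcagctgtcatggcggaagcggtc
All 4 pairs have a spacer of 2 bases, and that of Tctn1 is a perfect inverted repeat. They lie 33 to 20 bases before the start in Bbs7, 24 to 11 before it in Mks1, and 21 to 34 and 36 to 49 bases after it in Ahi1 and Tctn1. The pair was inside the strongest promoter peak in both replicates in Bbs7, Mks1 and Ahi1. In Tctn1 it crossed the edge of the peak. In replicate 1, 3 of 42 members had the pair inside their peak, beside 0.673% of protein-coding genes with a peak.

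The single unit GTTGCCA on either strand was in 6 members, Ift27, Ift88, Bbs1, B9d1, Tctn2 and Mks1, where it is part of the pair, beside 4.28% of all windows. A pair or a single unit was in 9 of 42 members, beside 4.76% of all. Inside the peak of replicate 1 the single unit was in 5 members, beside 2.47% of protein-coding genes with a peak. Neither was in the polycystic or nephronophthisis windows. The signals of the 4 genes with a pair, from 86.3 and 91.9 in Mks1 to 175 and 225 in Tctn1, lay within the range of the other members. The CCAAT box of NFY was in 21 members, beside 39% of all windows, and in 8 of 9 transport genes. The SP box GGGCGG was in 23 members, beside 43%. The ETS letters CCGGAAG were in 6 members, beside 10.8%, and the NRF1 letters GCGC, any base and TGCGC in 5, beside 5.99%. All were searched on both strands, and a match or its lack says nothing about the factor itself.

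Distal sites around the members were about as many as around other genes. The members had a median of 6.5 shared distal sites within 50 kb of the most 5′ start site, with quartiles of 3 and 9, beside a median of 6 and quartiles of 2 and 11 for all protein-coding genes. By class the medians were 7 for the polycystic genes, 6.5 for nephronophthisis, 6 for transport, 4 for Bbs and 7 for the transition zone. Ttc21b alone had 0, beside 14.3% of all genes, and 9 members had 10 or more, beside 29.3%. Glis2 had the most with 21, then Tctn1 with 16, Ift122 with 15, and Ift43 and Bbs5 with 13 each. Cep290, Invs, Tmem67 and Ift172, all with promoter signals above the upper quartile, had 1 each. Of the 291 sites, 174 were intronic, 90 intergenic and 27 exonic, 93 lay inside the member itself, and for 145 the member's start site was the nearest of any protein-coding gene. Their median signal was 20.4 and 19.5, beside 19.9 and 18.6 for all 149310 shared distal sites.

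**Figure D4:**
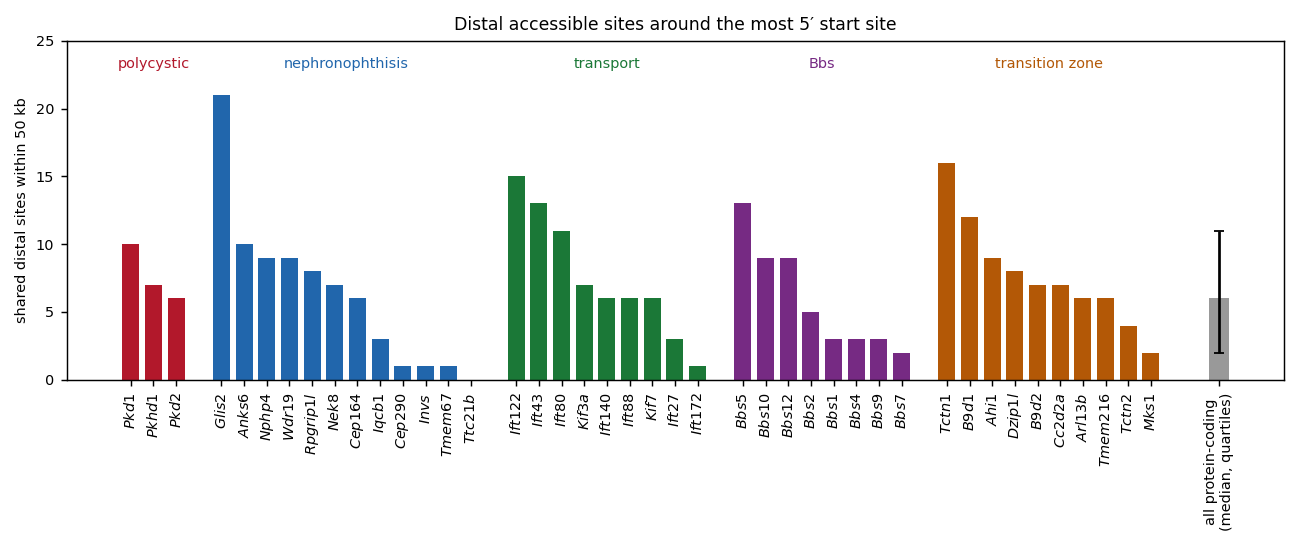
Number of shared distal sites (over 1 kb from every annotated start site) within 50 kb of the most 5′ start site of each gene, by class, with the median and quartiles of all protein-coding genes at the right. Glis2 stands highest with 21, Ttc21b has 0, and most bars lie between the quartiles of 2 and 11.

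The strongest distal site of any member lay near Glis2. It was at chr16:4586661-4586850, intergenic and 7.96 kb upstream of the Glis2 start, which is the nearest protein-coding start site. Its signal of 235 and 245 was about that of the Pkd1 promoter and was above the Glis2 promoter, at 119.98 and 126, in both replicates. Its sequence is shown for that reason, from the plus strand of GRCm38.p6, and held 65.3% G and C.
Glis2 distal site (plus strand, chr16:4586661-4586850): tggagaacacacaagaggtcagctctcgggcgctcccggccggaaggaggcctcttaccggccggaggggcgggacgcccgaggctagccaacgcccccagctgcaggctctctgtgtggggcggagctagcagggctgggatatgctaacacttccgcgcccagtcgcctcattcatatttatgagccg
It held the SP and ETS letters but no RFX or CTCF letters, and no base is set in capitals. A further intergenic site 1.63 kb upstream had 89.4 and 79.5. A site 47.6 kb downstream, within an intron of Coro7, had 149 and 140.3.

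Other strong sites mostly lay in or near neighbouring genes. For Tmem216 the strongest was at chr19:10602921-10603070 in an intron of Tkfc, 46.8 kb upstream, with 137 and 148. For Ift43 it was at chr12:86037461-86037610 in an intron of Ttll5, 45.0 kb upstream, with 136 and 99.9. For Nek8 it was at chr11:78159221-78159370 in an exon of Traf4, 17.4 kb downstream, with 95.7 and 135. All 3 had another gene's start site nearer. For Iqcb1 it was at chr16:36817461-36817610 in an intron of Eaf2, 10.8 kb upstream, with 87.1 and 108. For Wdr19 it was at chr5:65157861-65158050 in an intron of Klhl5, 41.7 kb upstream, with 86.9 and 104. For these 2 genes the member had the nearest start site. For Ift122 it was at chr6:115803581-115803730 in an exon of Cand2, 49.8 kb upstream, with 79.0 and 92.9. For Bbs5 it was at chr2:69640261-69640450, intergenic and 6.82 kb upstream, with 92.3 and 72.0. For Ift88 it was at chr14:57407501-57407650, intergenic and 16.5 kb upstream, with 74.3 and 80.3. Among these only Bbs5 was the nearest gene to its site. For Nphp4 it was at chr4:152434941-152435110 in an intron of Kcnab2, 41.7 kb upstream, with 64.3 and 79.6, and Nphp4 had the nearest start site.

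In 5 of the 41 members with a distal site, the strongest one was above the promoter peak in the mean of both replicates, beside 31.7% of protein-coding genes with a promoter peak and a distal site. For Glis2, Tmem216 and Iqcb1 this held in each replicate. For Ift43 and Pkhd1 it held in replicate 1, and in replicate 2 the promoter was higher. The RFX pair was in 1 of the 291 sites, an intronic site of Ift122 at chr6:115891601-115891850 with 33.8 and 32.2, beside 0.324% of all shared distal sites. The CTCF letters CCANNAG, 2 bases and GGC, chosen after the sites were seen, were in 42 of the 291, or 14.4%, beside 7.42% of all shared distal sites. The Nek8 site was the only 1 of the 10 strongest to hold them.

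Further genes of the same pathways, from lists fixed by name, had promoter peaks throughout, and the highest and lowest of each list by mean signal are named. All 49 other cyst and cilium genes had one in both replicates, with a median of 116 and 135. The 18 other transport genes had a median of 119 and 128, highest in Ift20, at 259.8 and 330.5, and lowest in the motor Kif17, at 48.7 and 58.0. The 6 other Bbs genes had a median of 175 and 199, highest in Bbip1, at 291 and 328, and lowest in Ttc8, at 79.7 and 89.1. The 8 other nephronophthisis genes had a median of 111.96 and 124. Among them Xpnpep3, at 207 and 199.6, was highest, and Dcdc2a, at 36.3 and 42.1, was lowest. The 10 other transition zone genes had a median of 115 and 135, highest in Tctn3, at 192 and 211, and lowest in Tmem17, at 65.5 and 62.7. Of the 7 other cyst genes, Dnajb11, an endoplasmic reticulum chaperone of dominant polycystic disease, was highest with 257 and 294. Lrp5, a Wnt co-receptor, was lowest with 41.9 and 38.4. The RFX pair was in 8 of the 49 windows, beside 0.725% of all protein-coding windows.

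Relatives of the polycystic genes mostly had weak promoter peaks or none. Of 7 relatives, 4 had a promoter peak in both replicates, beside 71.8% of all protein-coding genes, with a median of 17.4 and 23.9 among those 4. By CpG, 2 of the 7 fell in the poorest group and 3 in the second poorest. In those groups 19.1% and 53.0% of all promoters had a peak in both replicates. Pkd2l2 was highest with 83.6 and 107 and Pkhd1l1 lowest with 9.94 and 11.9. Pkd1l2, Pkd1l3 and Pkd2l1 had no promoter peak in either replicate. Of the cilium transcription factors, Rfx1 was highest with 305 and 306 and Rfx6, a factor of the pancreatic islet, lowest with 13.8 and 13.3. The list of 14 genes of multiciliated cells, the cells with many motile cilia, had a promoter peak at 14 of 14 in both replicates but a median of 65.2 and 71.2. The dynein gene Dnaic1 was highest there with 233 and 247, and Gmnc, the inducer of the multiciliated fate, lowest with 14.4 and 11.6. The 10 kidney markers had a median of 66.3 and 66.4 and 16.5 distal sites, beside 6.5 for the members. The part of these cell types in the members' values was not tested.

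**Figure D5:**
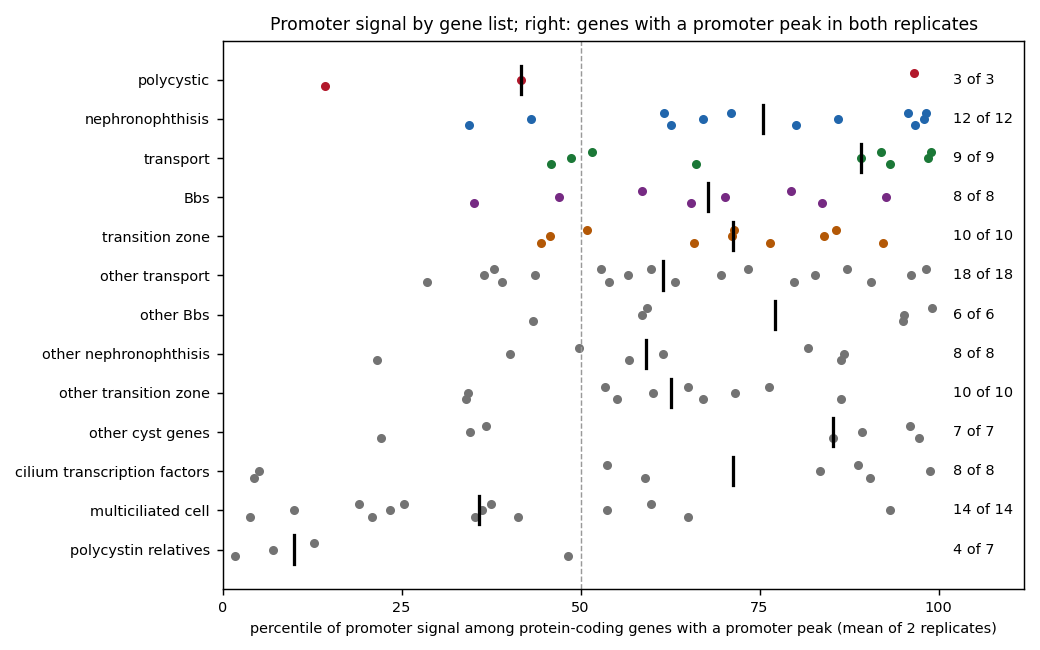
Percentile of promoter signal among protein-coding genes with a promoter peak (horizontal axis, mean of 2 replicates) for each gene of the 5 classes in colour and of the other lists in grey, with the list median as a black bar and the number of genes with a peak in both replicates at the right. The member classes other than the polycystic genes have medians to the right of the dashed line at 50, and multiciliated genes and polycystin relatives have medians to its left.

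Replicate values of the members lay close together. Promoter signal was higher in replicate 2 for 35 of 42 members, beside 73.2% of protein-coding genes with a peak. Relative to the median shift of all promoters, 0.12 on the log2 scale, the log2 ratio of replicate 2 to replicate 1 lay between -0.32 for Tmem216 and 0.61 for Kif3a. No member was more than 2-fold apart, beside 0.14% of all promoters. The closest pair of values was that of Ift88, at 101.4 and 101.5.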

How the data were processed

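DNase-seq peak lists of 2 replicates of newborn mouse kidney were used, with 1 list per sample and no pooling, from 36-nt reads aligned, per the file headers, to mm10 with no alternate sequences. The peak signal and the −log10 p of each peak are the authors' own deposited values. The signal is a multiple of 1 part in 64, and its scaling is not stated, and of the aligner and the peak caller nothing is given in the sources used here. Signal was used to rank peaks, and −log10 p was not used for any result.

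Start sites were taken from GENCODE M21. Of the 42 members 41 are protein-coding there, and Tctn2, a processed transcript, was added through its own start sites. Dnai1 and Dnai2 were matched by synonym to Dnaic1 and Dnaic2. RefSeq promoter windows matched for 37 members, in 43 entries, and all 43 equalled the genome. No peak lay beyond a chromosome end (0 peaks). Peaks sharing at least 1 bp between replicates were merged into shared sites. CpG was counted over 500 bp on each side of the start. The steps were tested on simulated data. Python 3.11.15, numpy 2.4.6, pandas 2.3.3 and pysam 0.24.0 were used.

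All members are named, distal sites are named for the 10 members with the strongest ones and for the polycystic genes, and other lists by their highest and lowest gene and any without a peak. The members and lists were chosen with earlier results of these data known. Some genes and 1 motif of the lists are not reported here. Read depth is unknown, and no test between groups was possible. Alternatives changed the promoter and distal windows, the signal threshold, the overlap, the start sites, the motifs and the replicates used.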

Additional observations from a re-analysis of the deposited data

How the results depend on the processing

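No paired analysis was possible because there was 1 group only. Promoter peaks were found at all 42 members under the other promoter windows and signal thresholds tried, at 41 with start sites of protein-coding transcripts alone, which Tctn2 lacks, and the RFX pair was in 4 members also with a window of 500 bp to each side or with any annotated start site. The single unit, a different motif, was in 6. The median promoter signal (mean of both replicates) of the nephronophthisis genes was 162, against 142 with a 500 bp window, 142 with Ttc21b and Wdr19 moved to the transport class and 148 without shared promoters. Without shared promoters it was 122 ± 26.4 (SD, n = 2) for transport, against 215, and 145 for Bbs, against 139. That put transport last of the 4 larger classes instead of first, with a wide spread between replicates. Among single genes, Nek8 had 156 with a 2 kb window. The count of distal sites followed the window by construction. For polycystic, nephronophthisis, transport, Bbs and transition zone genes the medians were 3, 3, 3, 2 and 3.5 within 25 kb and 17, 13, 14, 11.5 and 13.5 within 100 kb. They were 3, 3, 4, 2 and 5 with the upper 50% of peaks by signal, and 9, 8.5, 10, 7.5 and 11.5 when only the member's own start sites were avoided. With lists of equal length the polycystic median was 6. With 1 replicate left out, peaks needed no match and the medians ranged 8 to 9, 8 to 9.5, 7 to 9, 5.5 to 6 and 8 to 9.5. Unknown depth and 2 replicates limit all of these values.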

Other observations

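Within gene bodies the members differed widely in distal sites. Bbs9, over 413 kb, held 39 shared distal sites, or 9.45 per 100 kb. Pkhd1, the longest member at 560.3 kb, held 18, or 3.21 per 100 kb. Ift122 held 19 in 73.2 kb, or 25.9 per 100 kb. The median of the 38 members of at least 10 kb was 4.63 per 100 kb, beside 4.91 for the 14164 protein-coding genes of that length. Cep290, over 87.3 kb, and Iqcb1, over 44.3 kb, held 0. So did the shorter members Ift172, Ift27, Kif7, Bbs2, Bbs7, Mks1 and Tmem216, each of at least 10 kb. The share of all genes with 0 is not given here.

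Some members are neighbours on a chromosome. The start sites of Pkd1 and Ift140 lie 466251 bp apart on chromosome 17, and those of Bbs7 and Bbs12 lie 699077 bp apart on chromosome 3, so neither pair shares a distal site here.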
